A study of Saccharomyces cerevisiae with 15 samples.

Results

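The small (40S) subunit of the cytosolic ribosome of Saccharomyces cerevisiae is described here through the transcripts of its protein genes during the N-downshift, in which wild-type YSBN6 cells used up glutamine and went on to proline. Members were chosen by name, as every probe set annotated to exactly 1 S. cerevisiae gene with the symbol ASC1 or RPS followed by a number and an optional A or B. The rule uses no measured value, and it took 66 of 5498 single-gene probe sets, which stand for 53 of 5449 genes. The RefSeq table names 57 such genes, of which 4 were not analysed here. Of the 53 genes, 50 had a probe set whose probes are specific to the gene, and 13 of these had a second one with shared probes. RPS4B, RPS6B and RPS30A were measured with shared probes alone. Of the 16 probe sets with shared probes, 10 detect several transcripts of a gene family with all their probes, and in 6 some probes can also bind another gene.

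The cells grew in bioreactor batch cultures in minimal medium with 20 g/L glucose, and the medium of every sample, the −10 min samples included, was made with 500 mg/L glutamine and 250 mg/L proline. Time counts from the disappearance of glutamine. Samples of 3 independent cultures, called replicates 1, 2 and 3, were taken at −10, 7 and 24 min, and replicate 1 was also sampled at −5, 3, 10, 14, 56 and 120 min. This makes 15 arrays, each an Affymetrix Yeast Genome 2.0 array with labeled cRNA of 1 sample. The values are linear, normalized probe-set intensities, and differences are given as log2 changes with the standard error (SE) of the fit. Glutamine loss and the passing of time in a batch culture cannot be told apart, because no culture that kept its glutamine was sampled here. The intensities are relative to the other transcripts on an array, so that a change in total RNA per cell is not seen in them.

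The 40S subunit reads the mRNA. Its body and platform, its head, and the mRNA channel with the decoding centre between them are built on 1 rRNA from a fixed set of proteins, each present once, and in yeast most of these proteins are encoded by a pair of paralogous genes, A and B. Ribosomal protein genes are among the most strongly transcribed genes of growing yeast. Their transcription depends on Rap1, Fhl1 and the coactivator Ifh1 at the promoter, and on Sfp1 and Sch9, which convey the activity of the TORC1 kinase complex. TORC1 is active on good nitrogen sources such as glutamine, and rapamycin, its inhibitor, is known to lower ribosomal protein transcripts.

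Across the 15 arrays the total intensity of the 10928 probe sets on the array, untested ones included, varied little, between 2.27e+07 and 2.40e+07. Member probe sets were bright, with a median intensity of 18675 at −10 min (lowest 7438, highest 24502) where the median of all probe sets was 2451. The highest value of any probe set on any array was 31675. Brightness depends on the probes as well as on the transcript, and no order of transcript levels is read from it here.

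All 66 member probe sets fell at 24 min against −10 min, by a median log2 change of −0.44, with single values between −2.03 and −0.11 (limma, adjusted p under 0.05 for each). Of all probe sets 35.2% were called lower in this comparison, and their median log2 change was 0.09. For each of the 66, the arrays of all 3 cultures at 24 min lay below the arrays of all 3 cultures at −10 min, which held for 36.2% of all probe sets. The size was modest for most genes. Members lower by more than 2-fold numbered 10, against 9.26% of all probe sets. Over the 50 gene-specific probe sets alone the median was −0.59.

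The cultures differed in how far they had moved by 24 min. The median member log2 change within a culture was −0.51 in replicate 1, −0.32 in replicate 2 and −0.46 in replicate 3, and 15, 5 and 12 members were lower by more than 2-fold in them. Replicate 2 had the smallest fall of the 3 cultures in all 50 gene-specific probe sets. Its median log2 change over all 5498 single-gene probe sets was also the one nearest 0, with 0.02, beside 0.12 in replicate 1 and 0.11 in replicate 3. All 66 members were below their own −10 min value in each culture. Against 7 min, too, all 66 were lower at 24 min (29.9% of all probe sets), by a median log2 change of −0.42.

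**Figure D1:**
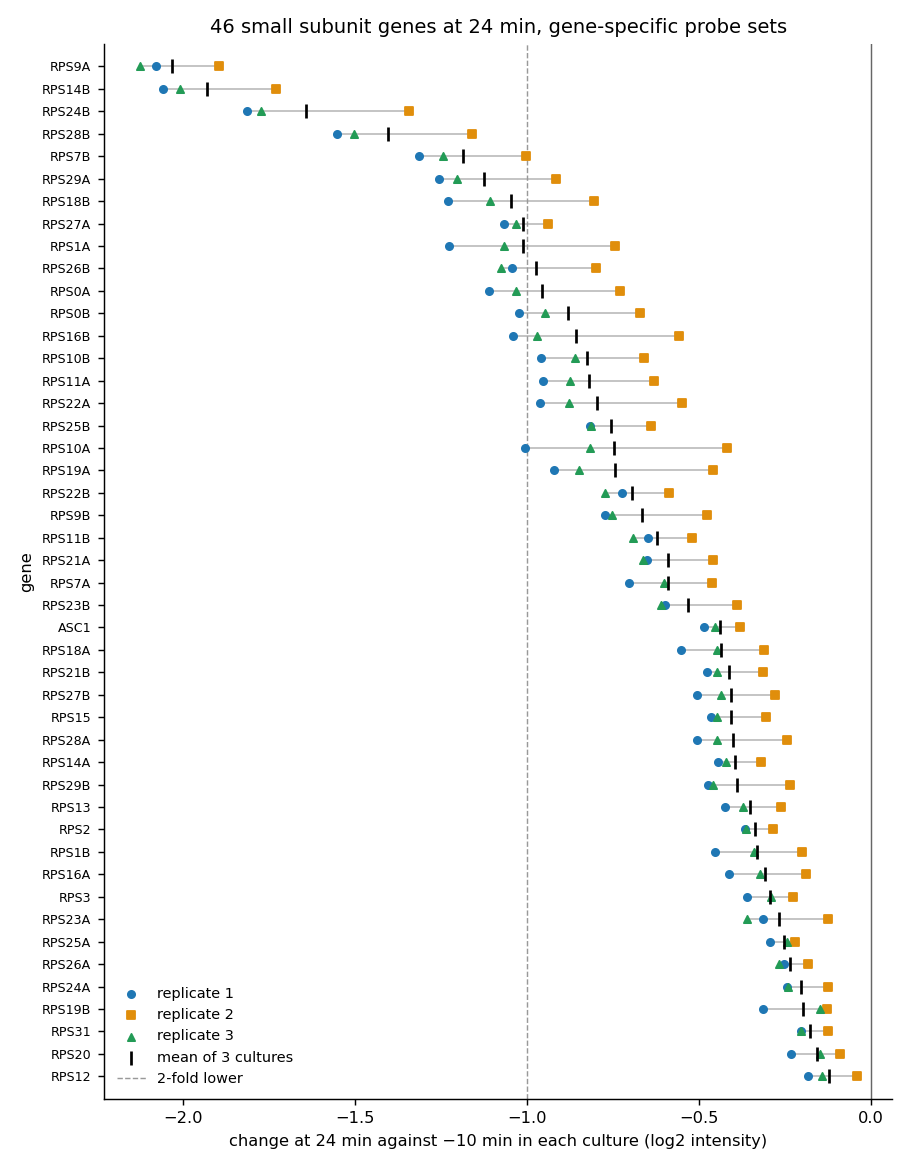
Log2 change of intensity at 24 min against −10 min for 46 of the 50 genes with a gene-specific probe set, from the largest mean fall at the top to the smallest at the bottom. Symbols are the 3 cultures, the black tick is their mean, the grey bar spans them, and the dashed line marks 2-fold lower. All values lie below 0, and RPS9A and RPS14B, near −2, stand at the top.

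Before that, at 7 min, the members had hardly moved while the rest of the transcriptome had. One of 66 members was lower at 7 min against −10 min and none was higher, where 20.9% of all probe sets were called lower and 18.5% higher. The median member log2 change was −0.02. For 22 of 66 members all 3 arrays at 7 min lay below all 3 at −10 min, which held for 29.5% of all probe sets. The member called was RPS9A, with a log2 change of −0.23 (SE 0.05, limma adjusted p = 0.00355). RPS14B followed with −0.15 (adjusted p = 0.0751), RPS25B with −0.12 (adjusted p = 0.0565) and RPS7B with −0.08 (adjusted p = 0.259), which did not pass. The count depended on the cultures used. It was 2 with the culture as a block, where RPS25B also passed (adjusted p = 0.0307), 13 without replicate 2, and 0 without replicate 1 or without replicate 3. The median member change at 7 min was 0.03 once the arrays had been centred on their medians, so that the members' median has no settled direction at that time.

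Replicate 1, sampled more often, showed when the fall began. No member passed at −5 min or at 3 min against −10 min, where 0.0182% and 1.13% of all probe sets were called lower (with the culture as a block, 1 probe set in place of 62 at 3 min). At 10 min 7 of 66 members were lower (25.5% of all probe sets) with a median log2 change of −0.06. By 14 min 42 members were lower (29.4% of all probe sets) with a median of −0.17. Both counts were smaller in other fits, 3 members at 10 min and 24 at 14 min with the culture as a block, 3 and 18 with arrays centred on their medians, and 27 at 14 min after quantile normalization. At 56 min all 66 were lower (29.7% of all probe sets), by a median of −1.48, and 53 of them by more than 2-fold (10.6% of all probe sets). At 120 min all 66 were still lower (32.9% of all probe sets), by a median of −1.40, and 52 by more than 2-fold (9.71% of all probe sets). Each of these times rests on 1 array, and the test takes its spread from the times with 3 cultures.

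**Figure D2:**
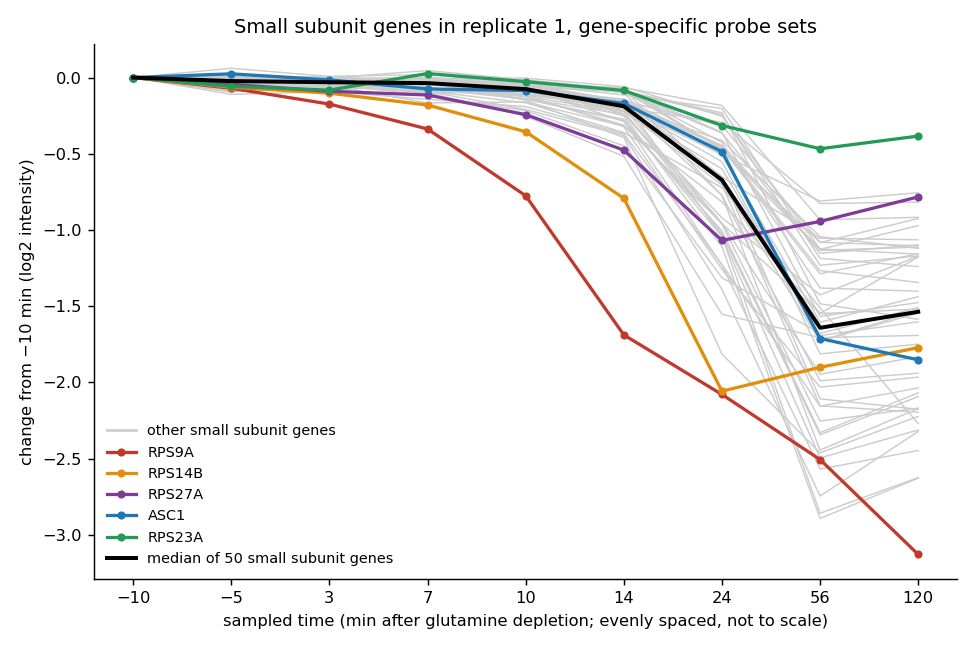
Log2 change of intensity from the −10 min array in replicate 1 at 9 sampled times, which are drawn evenly spaced. Each line is 1 of 50 small subunit genes (gene-specific probe sets), 5 are colored, and the black line is their median, which stood at −0.67 (24 min), −1.64 (56 min) and −1.54 (120 min). RPS9A fell first, RPS14B and RPS27A had their lowest value at 24 min, and RPS23A changed least.

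On the log2 scale the larger part of the fall lay, for most genes, between the 24 and the 56 min samples. Against 24 min, 64 of 66 members were lower at 56 min (12.2% of all probe sets), by a median log2 change of −0.89, and the others, RPS14B and RPS27A, did not pass. That comparison sets the 56 min array of replicate 1 against the mean of all cultures at 24 min. Replicate 1 had the largest median fall of the cultures by 24 min, which makes the later fall look larger. Within replicate 1 the median log2 change from 24 to 56 min was −0.80, and 64 of 66 members lay below their 24 min value. By 24 min a gene-specific probe set had covered a median of 39.2% of its largest fall in replicate 1. The time at which 50% of the largest fall was covered, read by linear interpolation between sampled times, had a median of 29.7 min over the 50 gene-specific probe sets (quartiles 22.5 and 32.7 min, range 13.5 to 40.7 min). For 35 of the 50 this time lay after 24 min, for 9 between 20 and 24 min, and for 6 by 20 min. These 6 were RPS9A at 13.5 min, RPS27A at 15.0 min, RPS14B at 15.9 min, RPS28B at 17.2 min, RPS7B at 18.5 min and RPS24B at 19.9 min. With no sample between 24 and 56 min, the times inside that gap follow from the straight line. On linear intensities the median was 23.2 min, so that on that scale most genes had covered 50% of their fall before 24 min.

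The 8 measured genes with a single copy moved late. At 24 min all 8 were lower, with log2 changes between −0.44 and −0.12 and a median of −0.32, against −0.68 for the 42 gene-specific probe sets of genes with 2 copies. None of the 8 was lower by more than 2-fold at 24 min, and 7 of them were at 56 min, where the medians were −1.33 for single-copy genes and −1.71 for the others. They covered 50% of their largest fall between 30.9 and 38.3 min in replicate 1. Each of the 8 was brighter at −10 min than 18107.5, which parts the gene-specific sets into a brighter and a dimmer 25. The medians of those parts at 24 min were −0.41 and −0.83. These figures are descriptions, and neither the difference between the classes nor the part of brightness in it was tested.

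ASC1, the yeast RACK1 homolog, is a WD-repeat protein on the back of the head that links signaling and translation. Its intensities were 15691, 16976 and 15881 at 24 min in replicates 1, 2 and 3, against 21982, 22120 and 21725 at −10 min. The groups did not overlap, and the log2 change was −0.44 (SE 0.03, limma adjusted p = 2.60e-08). At 7 min ASC1 stood at 20872, 20848 and 21244, a log2 change of −0.06 that did not pass (adjusted p = 0.105). Replicate 1 read 6707 at 56 min and 6089 at 120 min, so that its log2 change reached −1.71 and −1.85, the largest among the single-copy genes at both times.

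RPS2 and RPS3 had similar values at 24 min. Rps2 and Rps3 line the mRNA entry channel, and Rps3 also belongs to the head. RPS2 had 16425, 18279 and 16984 at 24 min, against 21151, 22277 and 21860 at −10 min, and RPS3 had 18657, 20229 and 19160 at 24 min, against 23930, 23687 and 23428 at −10 min. Both sets of arrays were separate, with log2 changes of −0.34 for RPS2 and −0.29 for RPS3. At 56 min their log2 changes were −1.19 and −1.55.

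The smallest falls at 24 min among single-copy genes were those of RPS12, RPS20 and RPS31. RPS12, for a protein of the beak of the head, had 20959, 22114 and 21181 at 24 min, against 23795, 22753 and 23356 at −10 min (log2 change −0.12, SE 0.03, limma adjusted p = 0.000882). The gap between the groups was narrow, 22114 in replicate 2 at 24 min against 22753 in the same culture at −10 min. RPS20, for a head protein, had a log2 change of −0.16 at 24 min and −1.48 at 56 min, where the array read 7445. RPS31, whose product is made as a fusion with ubiquitin, had −0.18 at 24 min and −1.19 at 56 min. RPS13, for a protein of the body, and RPS15, for a head protein needed for export of the subunit, had −0.35 and −0.41 at 24 min, and −1.38 and −1.29 at 56 min.

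RPS9A had the largest fall at 24 min and the earliest. Rps9 sits at the mRNA entry and contributes to accurate decoding. RPS9A read 5936, 6716 and 6368 at 7 min and 1775, 1902 and 1774 at 24 min, against 7501, 7076 and 7753 at −10 min. Neither later group overlapped with the −10 min arrays. At 7 min 22 of 66 members lay wholly below their −10 min arrays, as did 29.5% of all probe sets. In replicate 1 alone RPS9A read 7145 (−5 min), 6648 (3 min), 4381 (10 min) and 2327 (14 min). Afterwards it read 1320 (56 min) and 857 (120 min). The log2 change was −1.68 at 14 min (limma adjusted p = 4.27e-09) and −2.03 at 24 min (SE 0.05, limma adjusted p = 3.41e-12). It reached −2.49 and −3.12 at the last 2 times. At 14 min it was the one member lower by more than 2-fold, where 7.44% of all probe sets were. The value at 857 is the lowest of any member on any array and lies above 68.1, the intensity below which 95% of the probe sets designed for the array's second yeast species fell.

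RPS14B stood second at 24 min. Rps14 belongs to the platform near the mRNA exit, and the protein is known to bind RPS14B pre-mRNA and limit its expression. RPS14B read 2400, 2987 and 2556 at 24 min, against 9995, 9907 and 10298 at −10 min (log2 change −1.93, SE 0.06, limma adjusted p = 2.95e-11). Within replicate 1 the log2 change from 24 min was 0.16 at 56 min and 0.29 at 120 min, with readings of 2676 and 2926. These differed from the 24 min arrays by 0.02 (adjusted p = 0.867) and 0.15 (adjusted p = 0.178) on the log2 scale, without passing the test.

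RPS24B, RPS28B and RPS7B were also among the 6 largest falls. RPS24B, for a protein of the body, read 4967, 6735 and 5154 at 24 min, against 17465, 17080 and 17647 at −10 min (log2 change −1.64). RPS28B, for a head protein near the mRNA exit that is known to promote decay of the RPS28B transcript, read 4502, 5876 and 4752 at 24 min, against 13210, 13122 and 13464 at −10 min (log2 change −1.40). Replicate 2 was the highest of the 3 cultures at 24 min in both. RPS7B, for a protein of the body, had a log2 change of −1.19 at 24 min. All 3 passed with adjusted p-values of 2.47e-09 or lower in limma.

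The smallest falls at 24 min outside the single-copy genes were those of RPS23A, RPS30A and RPS19B. Rps23 forms part of the decoding centre. The shared-probe set listed for RPS23A read 20851, 20606 and 20666 at 24 min, against 22685, 22259 and 21937 at −10 min (log2 change −0.11, SE 0.02, limma adjusted p = 0.00171), and after quantile normalization it was −0.01 and did not pass (adjusted p = 0.678). The gene-specific set of RPS23A read 14829, 16073 and 14734 at 24 min, against 18443, 17514 and 18918 at −10 min (log2 change −0.27). At 56 min RPS23A reached −0.45 in the gene-specific set, the smallest change of the 50. RPS30A, for a protein at the mRNA entry whose mammalian counterpart is made as a fusion with a ubiquitin-like protein, had −0.19 at 24 min and −0.47 at 56 min, read with shared probes. RPS19B, for a head protein whose human counterpart is mutated in Diamond-Blackfan anemia, had −0.20 at 24 min and −1.02 at 56 min.

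All 22 gene-specific probe sets of the head were lower at 24 min, with a median log2 change of −0.42 (range −1.40 to −0.12), and so were all 28 of body and platform, with a median of −0.64 (range −2.03 to −0.20). The 14 that line the mRNA channel and decoding centre, drawn from both, had a median of −0.40. At 56 min the medians were −1.51 in the head, −1.77 in body and platform, and −1.42 in channel and decoding centre. Within each of these groups the genes lay further apart than the medians of the groups did. The 69 gene-specific probe sets of the large subunit had a median of −0.54 at 24 min and −1.47 at 56 min, and all 69 were lower at both times.

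The copies of 1 protein changed by different amounts. For 21 proteins both copies were measured, each with a gene-specific probe set. The A minus B difference was taken within each array, so that a constant factor on an array cancels out. A normalization that acts by intensity does not cancel in this difference, and no other normalization was tried for the pairs. At 24 min against −10 min this difference changed in 19 of 21 pairs (limma, adjusted over 57 pairs of all gene families, of which 91.2% were called). Copy A fell more in 8 of the 19 and copy B in 11. The size of the difference had a median of 0.60 over the 21 pairs on the log2 scale, and it ran from 0.08 in RPS0 to 1.54 in RPS14. In each of the 19 pairs the difference had the same sign in all 3 cultures, and in RPS10 and RPS22, which did not pass, it did not. The exact two-sided permutation test of 3 arrays against 3 cannot go below 0.1, a value that 19 of 21 pairs reached at 24 min. The share of pairs called, 90.5%, lay near that of all 57 pairs. Of these 57, however, 21 are the pairs described here and 29 are pairs of the large subunit. Shares given for all pairs are therefore mostly those of ribosomal protein genes.

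**Figure D3:**
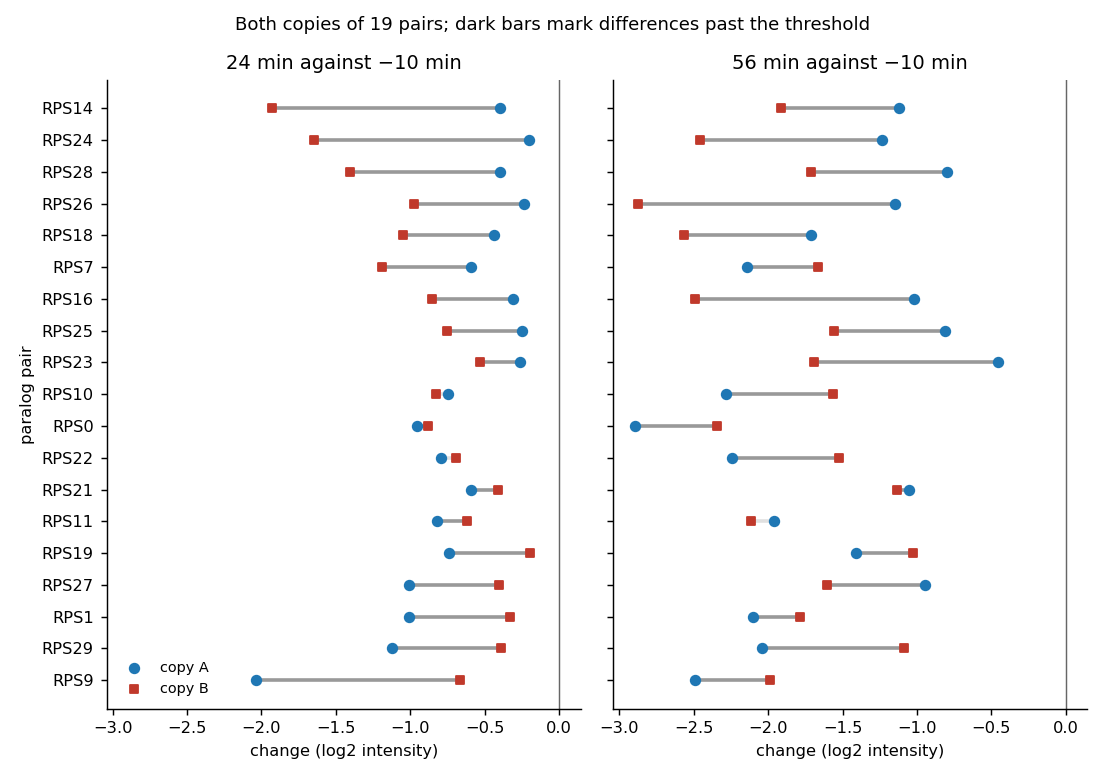
Log2 change of intensity of copy A (circles) and copy B (squares) against −10 min for 19 of the 21 paralog pairs, at 24 min on the left and at 56 min on the right, in the order of the A minus B difference at 24 min. Dark bars mark pairs whose difference passed the test, 17 of the 19 drawn at 24 min and 18 at 56 min (87.7% of all 57 pairs at 56 min). The copies stand up to 1.54 apart at 24 min, and RPS7 and RPS27 have changed sides by 56 min.

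Among the 8 widest pairs at 24 min were RPS14, RPS24, RPS9, RPS28, RPS26, RPS29 and RPS1. RPS14A, with 15511, 16845 and 15751 at 24 min, against 21123, 21020 and 21074 at −10 min, had a log2 change of −0.40, and the A minus B difference of the RPS14 pair was 1.54 (SE 0.05, limma adjusted p = 1.82e-08). It measured 1.61, 1.41 and 1.59 in replicates 1, 2 and 3. RPS24A read 16855, 17936 and 17278 at 24 min, against 19949, 19541 and 20419 at −10 min, a log2 change of −0.20, and the RPS24 difference was 1.44 (SE 0.08). Both copies fell in each of these pairs, and copy B by far the more.

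In the RPS9 pair it was copy A that fell more. RPS9B read 11197, 13350 and 11652 at 24 min, against 19125, 18574 and 19624 at −10 min, a log2 change of −0.67, and the A minus B difference was −1.37 (SE 0.05), with −1.31, −1.42 and −1.38 in the 3 cultures. RPS9 was also the one pair of 21 that passed at 7 min against −10 min, with −0.23 (SE 0.05, limma adjusted p = 0.0352), where 5.26% of all 57 pairs were called. That call did not hold with the culture as a block (adjusted p = 0.12), without replicate 1 (adjusted p = 0.274) or without replicate 3 (adjusted p = 0.388).

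Of the other wide pairs, the A minus B difference was 1.01 in RPS28, 0.74 in RPS26, −0.74 in RPS29 and −0.68 in RPS1. Rps26 lines the mRNA exit, and its 2 transcripts were the widest pair at 56 min. RPS26B read 8608, 10295 and 8608 at 24 min, against 17731, 17927 and 18148 at −10 min, and 2445 at 56 min, a log2 change of −2.88 at that time. RPS26A read 15591, 16720 and 15874 at 24 min, against 18588, 18977 and 19091 at −10 min, and 8523 at 56 min, a change of −1.15. The RPS26 difference at 56 min was thus 1.73. RPS29A, for a head protein, had −1.13 at 24 min and RPS29B −0.39. RPS1A, for a platform protein that touches initiation factor eIF3, had −1.01 and RPS1B −0.33.

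A probe set with shared probes can bind more than the 1 copy it is listed for, and its change need not lie between those of the gene-specific sets. In 11 of the 13 genes with both kinds, the gene-specific set fell more at 24 min, by a median of 0.16 more on the log2 scale. RPS18B gave −1.05 in the gene-specific set and −0.31 in the shared one, where RPS18A had −0.44. The shared set thus fell less than the gene-specific set of either copy. RPS24A and RPS19B were the exceptions. The shared set of RPS24A gave −0.43, between the −0.20 of its own gene-specific set and the −1.64 of RPS24B.

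**Figure D4:**
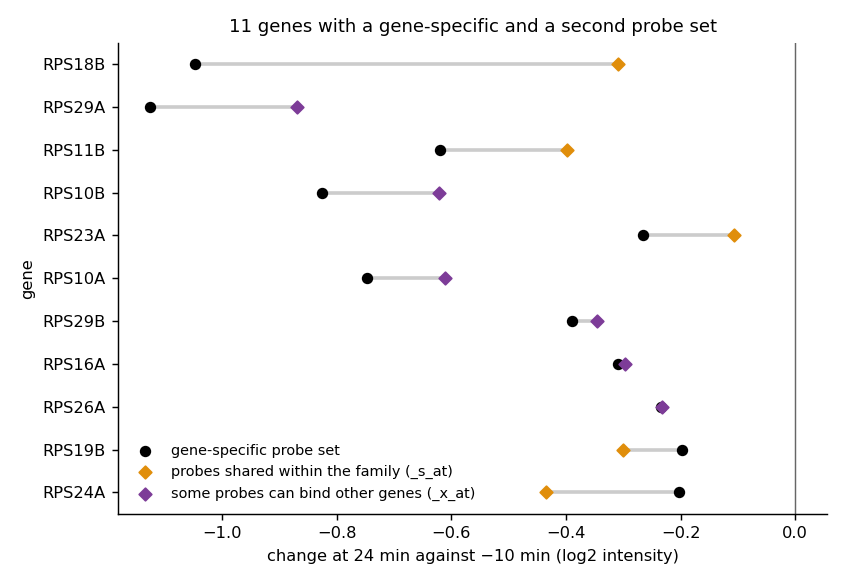
Log2 change of intensity at 24 min against −10 min for 11 of the 13 genes with a gene-specific probe set (circles) and a second probe set with shared probes (diamonds, colored by suffix). In 9 of the 11 genes drawn the gene-specific set lies further below 0, as in RPS18B (−1.05 against −0.31).

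The size of the difference went on changing after 24 min, in 18 of 21 pairs at 56 min against 24 min (77.2% of all 57 pairs). In RPS23, whose copies encode the same protein of the decoding centre, A minus B was 1.24 at 56 min, where RPS23B had a log2 change of −1.70 and RPS23A of −0.45, and it had been 0.27 at 24 min. RPS16, for a head protein whose tail reaches the P site, had 1.48 at 56 min and 0.55 at 24 min, with RPS16B at 3556 and RPS16A at 7550 on the 56 min array, against 20059 and 15573 on the −10 min array of the same culture. The RPS14 and RPS9 differences were smaller at 56 min, 0.79 and −0.51. At 120 min the RPS14 difference was 0.81, while that of RPS9, at −1.18, was again near its −1.37 at 24 min, each read from 1 array. In these pairs RPS14A and RPS9B fell by 0.73 and 1.32 on the log2 scale at 56 min against 24 min, while RPS9A fell by 0.46. Taken within replicate 1, the log2 changes of RPS14A, RPS9B and RPS9A were −0.68, −1.22 and −0.43.

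The remaining pairs fell together more closely at 24 min. RPS0A and RPS0B, for a protein of the body at the mRNA exit side whose mammalian counterpart is known as laminin receptor precursor, had log2 changes of −0.96 and −0.88 at 24 min. RPS0A then reached −2.90 at 56 min, the largest fall of any member at that time, with 2165 on the array, against 16076 at −10 min in that culture. RPS10A and RPS10B, for a head protein, had −0.75 and −0.83 at 24 min, and RPS22A and RPS22B −0.80 and −0.69, without a difference that passed. RPS11A and RPS11B, for a protein of the body, had −0.82 and −0.62, and RPS25A and RPS25B −0.25 and −0.76. RPS18A and RPS18B, for a head protein that touches the large subunit, had −0.44 and −1.05, and RPS19A had −0.74. RPS4B and RPS6B, measured with shared probes, had −0.22 and −0.28 at 24 min and −1.04 and −0.98 at 56 min. Rps6 is a protein of the body that is phosphorylated when TORC1 is active.

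Most pairs kept their order from 24 to 56 min, and a few did not. Of the 21 pairs, 15 had a difference of the same sign at 24 and 56 min that passed at both times, and 3 had opposite signs at 24 and 56 min with all tests passed. These were RPS7, RPS27 and RPS21, which are named here after their values were seen. In the RPS7 pair, copy A had fallen more at 56 min (A minus B −0.48, limma adjusted p = 1.92e-06) and copy B at 24 min (0.60, adjusted p = 8.14e-08), both against −10 min. The change of this difference at 56 min against 24 min was −1.07 (adjusted p = 1.86e-08). RPS7A read 10820, 12806 and 11265 at 24 min, against 17633, 17631 and 17106 at −10 min, and 3962 at 56 min and 3847 at 120 min. RPS7B read 6231, 7515 and 6495 at 24 min, against 15485, 15067 and 15404 at −10 min, and 4837 at 56 min and 5439 at 120 min.

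The RPS27 pair turned the other way. Rps27 is a zinc-binding protein of the body. RPS27A read 7807, 8569 and 7987 at 24 min, against 16374, 16414 and 16326 at −10 min, and then 8511 at 56 min and 9515 at 120 min. RPS27B read 14134, 16293 and 14993 at 24 min, against 20084, 19780 and 20289 at −10 min, and 6601 at 56 min and 7414 at 120 min. The A minus B difference was 0.66 at 56 min and −0.60 at 24 min, and its change at 56 min against 24 min was 1.26 (SE 0.04, limma adjusted p = 1.86e-08). RPS27A was the one member higher at 120 min than at 24 min (log2 change 0.23, adjusted p = 0.00165, where 30.2% of all probe sets were called higher), and within replicate 1 that change was 0.29. It passed as well with the culture as a block, after quantile normalization and with centred arrays (0.19 to 0.26). RPS14B, which did not pass, had the same change of 0.29 within replicate 1. The difference in the RPS21 pair was small at both times, 0.08 at 56 min and −0.18 at 24 min, and the value at 56 min did not pass with the culture as a block (adjusted p = 0.128).

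**Figure D5:**
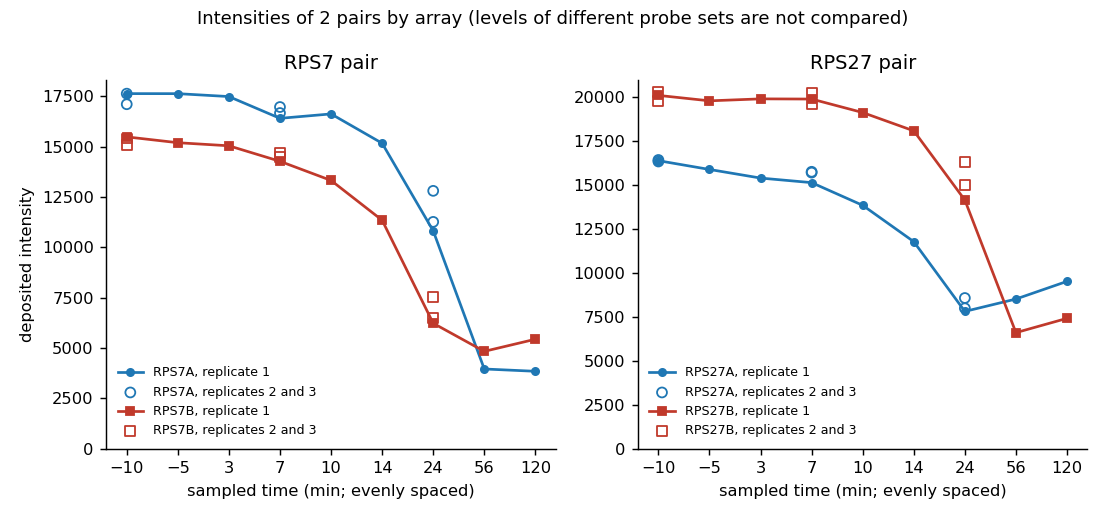
Deposited intensity, on a linear axis from 0, of RPS7A and RPS7B (left) and RPS27A and RPS27B (right) at the sampled times, drawn evenly spaced. Lines with filled symbols are replicate 1 and open symbols replicates 2 and 3 at −10, 7 and 24 min. Between 24 and 56 min RPS7A and RPS27B dropped further while RPS7B changed less and RPS27A did not fall.

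Copies of a pair also differed in timing. In replicate 1 the times at which the copies had covered 50% of their largest fall lay a median of 8.76 min apart, and more than 10 min apart in 9 of 21 pairs. RPS27 had the widest gap, with 15.0 min for RPS27A and 32.6 min for RPS27B, followed by RPS9 with 13.5 min for RPS9A and 29.8 min for RPS9B. In RPS24 the order was the other way, 36.1 min for RPS24A and 19.9 min for RPS24B. At 10 min 3 of 21 pairs had passed (8.77% of all pairs) and at 14 min 8 (24.6% of all pairs).

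From 56 to 120 min few members moved. At 120 min against 56 min, 2 of 66 members were lower (5.77% of all probe sets) and 1 was higher (4.64% of all probe sets), each read from 1 array per time. RPS22B, for a protein of the body, read 2237 at 120 min against 3786 at 56 min, a log2 change of −0.76 (limma adjusted p = 0.000272). RPS9A fell by 0.62 on the log2 scale (adjusted p = 0.00219). RPS25B, for a head protein, rose by 0.37 (adjusted p = 0.0121). The median change of all members was 0.08. In the 50 gene-specific probe sets the lowest intensity of replicate 1 fell at 56 min in 35, at 120 min in 13 and at 24 min in 2, RPS14B and RPS27A.

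Most members followed 1 common course and a few did not. The mean profile over 9 sampled times correlated with the median profile of the 50 gene-specific probe sets most closely for RPS26B and RPS23B (r = 0.9996 each), and least for RPS27A (r = 0.81), RPS14B (r = 0.86), RPS9A (r = 0.89), RPS28B (r = 0.93) and RPS7B (r = 0.95). Outside the ribosomal protein genes, the 6 genes nearest to the members' median by the same measure were ILV3 (r = 0.998), SSB1 (r = 0.998), HOM2 (r = 0.995), LEU1 (r = 0.993), DED81 (r = 0.993) and IZH4 (r = 0.992). SSB1 encodes an Hsp70 chaperone that binds nascent chains on the ribosome, and DED81 the cytosolic asparaginyl-tRNA synthetase. ILV3, LEU1 and HOM2 encode enzymes of amino acid synthesis. These are descriptions over 9 times of largely 1 culture, and the points share their arrays.

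The regulators of ribosomal protein genes were called in both directions. Of 23 listed and measured, 9 were lower (35.2% of all probe sets) and 7 higher (46.9% of all probe sets) at 24 min against −10 min, with a median log2 change of −0.04. The largest change was that of IFH1, with intensities of 639 ± 29.6 at 24 min and 1860 ± 49.5 at −10 min (SD, n = 3 each), a log2 change of −1.54. IFH1 was already lower at 7 min (−0.63), when 1 of 66 members was. CRF1, known as a corepressor that competes with Ifh1 for Fhl1, rose by 1.06, and YAK1, a kinase upstream of Crf1, by 0.95 at 24 min.

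Genes for the assembly of the 40S subunit were lower at 7 min already. Of 16 measured, 15 were lower at 7 min (20.9% of all probe sets), with a median log2 change of −0.72, and 15 were lower by more than 2-fold at 24 min (9.26% of all probe sets), with a median of −2.47. NMD3, one of the list, is better known as an export adaptor of the large subunit, and HRR25, a protein kinase, rose by 0.22 at 24 min. The largest falls at 24 min were −4.71 in TSR1, −4.67 in LTV1 and −4.11 in ENP1, all for factors bound to late precursors of the 40S subunit. TSR1 averaged 146 ± 11.8 at 24 min and 3820 ± 203 at −10 min (SD, n = 3 each). The median of this list stood at −1.34 at 120 min, where 5 of its genes were higher than at 56 min (4.64% of all probe sets).

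All 14 measured genes for initiation and other factors that bind the 40S subunit were lower at 24 min (35.2% of all probe sets), with a median log2 change of −0.83, and 10 of them were at 7 min (20.9% of all probe sets). RLI1, for an ATPase of ribosome recycling, had −1.90 at 24 min, and NIP1 and PRT1, for subunits of eIF3, had −1.76 and −1.26. STM1, for a protein that clamps idle ribosomes, had −0.24 at 24 min and −1.28 at 56 min.

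One property of the probe sets moved with the size of the change. Over the 50 gene-specific probe sets, the intensity at −10 min and the log2 change at 24 min correlated by r = 0.68, and by 0.29 at 56 min and 0.41 at 120 min, a description across probe sets that share their arrays. The brighter 25 had a median change of −0.41 at 24 min and the dimmer 25 one of −0.83. Among the 19 pairs that passed at 24 min, the dimmer probe set was the one that fell more in 15, and at 56 min in 12 of 20. What part the brightness of the probes has in the sizes given above was not tested.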

How the data were processed

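Affymetrix Yeast Genome 2.0 arrays of 15 samples were used, and their number limits the precision of each comparison. The authors deposited normalized intensities on a linear scale, having applied RMA background correction to the perfect-match probes, QSPLINE normalization to all arrays of the shift together, and Li-Wong summarization. R 2.10.0, affy and RMA are named in the submitters' notes. Labels and paper name different labeling kits, and a supplement of the paper places the first sample somewhat earlier than its label does. The labels' times were used. Probe sets of several genes or of the other yeast species were not tested.

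The log2 of each intensity, with nothing added, entered limma 3.58.1 (R 4.3.3) with 1 mean per sampled time over all 15 arrays, eBayes with trend, and 6 residual degrees of freedom. Benjamini-Hochberg adjustment ran over the 5498 probe sets of a comparison, and the threshold was 0.05. A minus B differences of 57 pairs were fitted likewise without trend, with an exact permutation test beside them. A copy was represented by its gene-specific probe set (the brightest of several), or by a shared one where it had no other. Both procedures were tested on simulated data. Lone arrays were assumed to vary like the times with 3 cultures.

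According to the paper's methods the replicates were independent bioreactors, and samples with 1 number therefore share a culture, which was no term of the fit above and entered an alternative as a block. Between times, a culture's deviations from the group means correlated by −0.271 to 0.189 over all probe sets and by −0.395 to −0.015 over the members. The alternatives were the culture as a block, quantile normalization, arrays centred on their medians, addition of 50 units before log2, a filter at 68.1 (the 95th percentile of the other species), eBayes without trend, the 9 arrays of the replicated times alone, each culture left out, and gene-specific probe sets alone. Members and lists were chosen with earlier results of these data known. Some members that the rule takes are not reported here by name. By rule the text names all single-copy members, the 6 largest and 6 smallest changes at 24 min, the 4 largest at 7 min, the 8 widest pairs, 3 genes per list and 6 genes of similar profile, and other genes were named after their values were seen.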

Additional observations from a re-analysis of the deposited data

Results flagged for a closer look

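In 3 paralog pairs the difference between the copies, A minus B on the log2 scale, had opposite signs at 24 and at 56 min, and its change at 56 min against 24 min passed the test (limma, adjusted over 57 pairs). The change was 1.26 in RPS27, −1.07 in RPS7 and 0.25 in RPS21 (adjusted p = 6.04e-05 in RPS21). In RPS27 the difference stayed at 0.65 and in RPS7 at −0.69 at 120 min, a second array of the same culture, while in RPS21 it was 0.04 and did not pass (adjusted p = 0.21). The array at 56 min comes from replicate 1 alone, and whether the other cultures turned in the same way is not known from these arrays.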

How the results depend on the processing

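At 24 min against −10 min the number of members lower was 66 in every alternative that kept all 66 but quantile normalization, where it was 65, and 50 of 50 without the shared-probe sets. Without the shared-probe sets the members' median was −0.59, and it was −0.57 at 24 against 7 min, −1.63 at 56 min and −1.55 at 120 min against −10 min. At 7 min the count of members lower was 2 with the replicate block and 0 to 13 with 1 replicate left out, and the members' median was 0.028 with arrays centred on their medians. At 10 and 14 min the counts were 3 and 24 with the block, 3 and 18 with centring, and 27 at 14 min after quantile normalization. The number of RPS pairs that differed at 7 min was 0 with the replicate block and 0 to 1 with 1 replicate left out. Over all probe sets the block left 1 lower and 0 higher at 3 min, against 62 and 141 without it. It moved no other count of members or RPS pairs called by over 1.5 times. RPS23A (shared set) at 24 against 7 min turned to 0.0099 after quantile normalization. RPS9A at 7 min did not pass without replicate 1 (−0.18, adjusted p = 0.0552) or without replicate 3 (−0.21, adjusted p = 0.0741), and the RPS21 difference at 56 min did not pass with the block (0.078), without the shared-probe sets (adjusted p = 0.0513) or without replicate 3 (adjusted p = 0.139). The causes were not tested. Of the other results of named members and pairs, 987 values under an alternative kept direction and side of the threshold. The times other than −10, 7 and 24 min have 1 array each, so that their spread is not known from replicates.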
